A study of Mus musculus with 2 samples.

Results

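The genes described here are 40 mouse genes of liver plasma proteins and liver metabolism, measured in 2 long-read RNA sequencing libraries of the neonatal adrenal gland. They are 40 of the 18053 annotated genes with at least 1 read in either library. Each was looked up by its exact gene symbol in both read tables, and its reads were summed over all of its transcript models. A gene absent from a table was given 0 reads. The genes were selected on measured values: they were seen at far higher levels in the library of replicate 2 than in that of replicate 1. That difference is therefore given as a description with no test.

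The liver parenchymal cell, the hepatocyte, makes most proteins of blood plasma, among them albumin, the clotting factors, the protease inhibitors and the apolipoproteins. Around birth the mouse liver also makes alpha-fetoprotein, the fetal relative of albumin, and is still a site of blood cell formation. The adrenal gland makes steroid hormones in its cortex and catecholamines in its medulla, and is not known as a source of the bulk of these plasma proteins.

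Replicate 2 and replicate 1 are the libraries analysed here, 1 per biological replicate, and belong to the same group. The source was whole adrenal RNA from B6CASTF1/J males at 4 days of age, a cross of C57BL/6J and CAST/EiJ, and the labels state no treatment and no further allele. The labels do not settle whether 2 animals were used: the tissue entries name different males for the replicates, while the library entries name the same male and the donor identifier is shared. Replicate 2 held 810645 mouse reads and replicate 1 held 688260, and levels are given as CPM, for which each library's mouse total was set to 1000000. On that scale 1 read was 1.23 CPM in replicate 2, against 1.45 CPM in replicate 1. A long read stands for 1 molecule of cDNA, so levels were not divided by transcript length. All 7 cortex markers and all 6 medulla markers had reads in both libraries. In replicate 2 the cortex list reached 31551 CPM and the medulla list 9293 CPM. In replicate 1 the cortex list reached 46554 CPM and the medulla list 12504 CPM.

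The promoters of the most abundant members are shown first. Any part of promoter sequence in the difference between the libraries was not tested. RefSeq promoter windows (GRCm38.p6, reference strain) matched 29 of the 40 genes by symbol, with 31 windows running from 250 bases before to 50 bases after each start site. The 5 most abundant matched members are printed from 130 bases before the start site, 5′ to 3′, and end before the first exon of their leading transcript. Capitals mark letters of any of 5 motifs searched on both strands. The first was the TATA box, TATAAA. Those of liver factors were GTTAAT for the HNF1 partial site, TGTTTNC for FOXA, TTGCNNAA for C/EBP and CAAAGTCCA for HNF4.
Ahsg, chr16:22891885-22892014, plus strand: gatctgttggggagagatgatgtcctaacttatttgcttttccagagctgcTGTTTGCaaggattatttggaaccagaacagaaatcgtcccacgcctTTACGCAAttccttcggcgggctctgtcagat
Alb, chr5:90460740-90460869, plus strand: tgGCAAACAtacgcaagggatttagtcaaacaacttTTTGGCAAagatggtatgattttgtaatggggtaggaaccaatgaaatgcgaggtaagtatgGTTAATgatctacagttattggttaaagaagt
Apoa1, chr9:46228500-46228579, plus strand: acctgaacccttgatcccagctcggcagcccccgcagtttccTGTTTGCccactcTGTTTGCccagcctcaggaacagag
Rbp4, chr19:38124829-38124941, minus strand: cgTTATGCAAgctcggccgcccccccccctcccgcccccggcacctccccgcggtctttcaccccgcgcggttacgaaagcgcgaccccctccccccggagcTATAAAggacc
Afp, chr5:90490584-90490713, plus strand: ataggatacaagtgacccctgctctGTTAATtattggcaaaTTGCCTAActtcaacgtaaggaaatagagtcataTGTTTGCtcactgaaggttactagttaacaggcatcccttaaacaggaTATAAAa

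Over the whole windows, TTGCNNAA was present in 15 of the 31 member windows (48.4%), against 10.8% of all 32851 promoter windows. The FOXA letters TGTTTNC were present in 17 member windows (54.8%), against 20.5% of all windows. The HNF1 letters GTTAAT stood in 11 member windows (35.5%), against 7.10% of all. TATAAA on either strand also stood in 11 (35.5%), against 13.6% of all, and on the sense strand 40 to 20 bases before the start site it stood in 4 member windows (12.9%), against 1.91% of all. The HNF4 letters CAAAGTCCA stood in 1, that of Cyp3a11 at position -109, and in 0.475% of all windows. Motif letters can overlap each other within a window, as TGTTTNC and TTGCNNAA do in Fabp1. These counts are of letters alone and were not tested.

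In replicate 2 the 40 genes held 23349 reads, or 2.88% of mouse reads (95% Wilson interval 2.84 to 2.92%). In replicate 1 they held 490 reads, or 0.0712% (0.0652 to 0.0778%). Their level was thus 28803 CPM in replicate 2, against 712 CPM in replicate 1, and the ratio was 40.5 with an exact 95% interval of 37.0 to 44.3, which covers counting error only. The mean of the libraries' shares was 1.48 ± 1.99% (SD, n = 2). All 40 genes had reads in replicate 2, with 1 to 4708 reads and a median of 192, and 31 had reads in replicate 1, with a median of 5 over the 40 and a highest value of 156. Of those 31, 21 had 1 to 9 reads and 10 had at least 10.

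**Figure D1:**
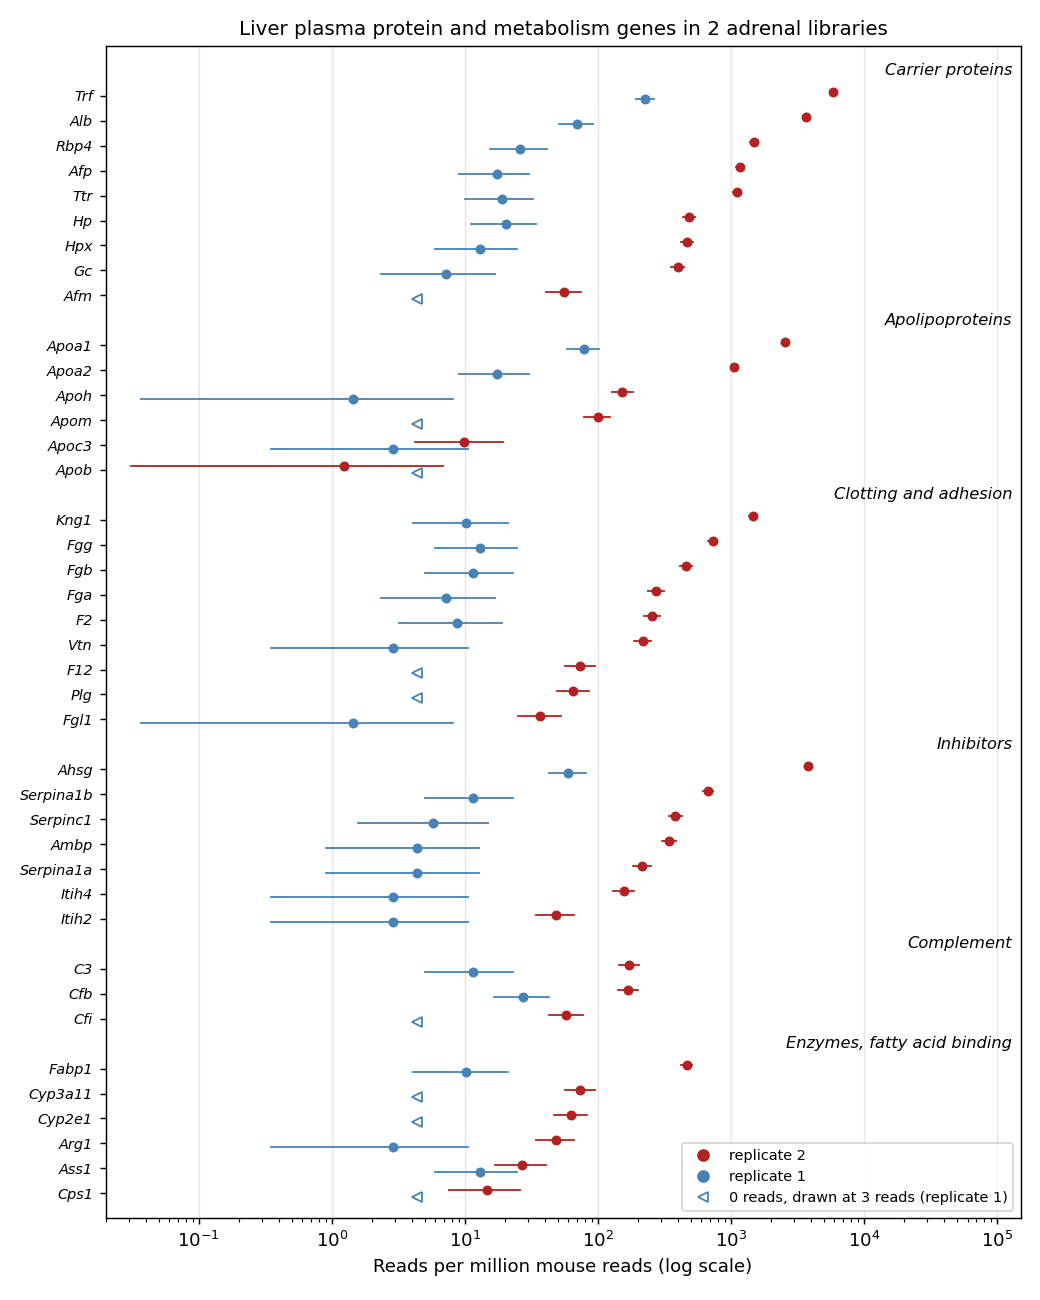
Level of each of the 40 genes in replicate 2 (red) and replicate 1 (blue), in CPM on a log axis, by role. Lines are exact 95% Poisson intervals of the read count, and open triangles stand for 0 reads, drawn at the 3 reads that a count of 0 allows. The red points lie right of the blue ones for every gene except Apob, which had 1 read in replicate 2 and 0 in replicate 1.

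Trf, the iron carrier transferrin, was the most abundant member, with 4708 reads (5808 CPM) in replicate 2 and 156 reads (227 CPM) in replicate 1. It ranked 4 among all genes in replicate 2 and 817 in replicate 1. Alb, albumin, which carries fatty acids and hormones and holds the osmotic pressure of plasma, had 2984 reads (3681 CPM) in replicate 2 and 48 reads (69.7 CPM) in replicate 1. Its fetal relative Afp had 943 reads (1163 CPM) in replicate 2 and 12 reads (17.4 CPM) in replicate 1. Of these 3, Trf had the lowest ratio at 25.6 (exact 95% interval 21.8 to 30.3), Alb had 52.8 (39.7 to 71.7) and Afp had 66.7 (38.0 to 130).

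Rbp4 and Ttr, whose proteins carry retinol through the blood as a complex, were close to each other in both libraries. Rbp4 had 1202 reads (1483 CPM) in replicate 2 and 18 (26.2 CPM) in replicate 1, and Ttr had 905 reads (1116 CPM) in replicate 2 and 13 (18.9 CPM) in replicate 1. Their ratios were 56.7 (35.7 to 96.0) and 59.1 (34.4 to 111). Gc, the vitamin D carrier, had 324 reads in replicate 2 and 5 in replicate 1. Afm, which binds vitamin E, had 45 reads (55.5 CPM) in replicate 2 and 0 in replicate 1. It was at least 9.94-fold higher in replicate 2, the lower end of the exact interval of its ratio. The least folds given below for other members with 0 reads in replicate 1 are lower ends of the same kind. Hpx, which binds free heme, had 379 reads (468 CPM) in replicate 2 and 9 (13.1 CPM) in replicate 1. Hp, which binds free haemoglobin, had 392 reads (484 CPM) in replicate 2 and 14 (20.3 CPM) in replicate 1, with a ratio of 23.8 (14.0 to 43.9).

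Among the apolipoproteins, the members of high-density lipoprotein led. Apoa1, its main protein, had 2077 reads (2562 CPM) in replicate 2, against 54 reads (78.5 CPM) in replicate 1, with a ratio of 32.7 (24.9 to 43.6). Apoa2, the second protein of the same particle, had 862 reads (1063 CPM) in replicate 2 and 12 reads (17.4 CPM) in replicate 1. Apom, which carries sphingosine-1-phosphate, had 81 reads (99.9 CPM) in replicate 2 and 0 in replicate 1, at least 18.2-fold higher in replicate 2. Apoh, a phospholipid-binding protein, had 124 reads in replicate 2 and 1 in replicate 1. Apoc3, an inhibitor of lipoprotein lipase, had only 8 reads in replicate 2 and 2 in replicate 1, and its ratio of 3.40 had an interval of 0.678 to 32.8 that includes 1. Apob, the large structural protein of very-low-density lipoprotein, had 1 read in replicate 2 and 0 in replicate 1, which allows no fold. Its longest annotated transcript, 13934 nt, is the longest of the 40 genes.

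The 3 fibrinogen chains, which join into the clot-forming protein, stood at 590 (Fgg), 375 (Fgb) and 223 (Fga) reads in replicate 2, against 9, 8 and 5 reads in replicate 1. The chains kept the same order in both libraries, although the replicate 1 counts lie within each other's counting error. Kng1, kininogen, the source of the vasoactive kinins and a cofactor of contact activation, had 1178 reads (1453 CPM) in replicate 2 and 7 reads (10.2 CPM) in replicate 1. Its ratio of 143 (69.1 to 356) was the highest among the members with at least 1 read in replicate 1. F12, the protease that starts contact activation, had 60 reads in replicate 2 and 0 in replicate 1, at least 13.4-fold higher in replicate 2. F2, prothrombin, had 207 reads (255 CPM) in replicate 2 and 6 (8.72 CPM) in replicate 1. Plg, the precursor of the clot-dissolving protease plasmin, had 53 reads in replicate 2 and 0 in replicate 1, at least 11.8-fold higher. Vtn, the adhesion protein vitronectin, had 177 reads in replicate 2 and 2 in replicate 1. Fgl1, a fibrinogen-like protein secreted by the liver, had 30 reads in replicate 2 and 1 in replicate 1.

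Of the inhibitors, Ahsg (fetuin-A, which holds calcium phosphate in solution) was far ahead, with 3063 reads (3778 CPM) in replicate 2 and 41 reads (59.6 CPM) in replicate 1. Its ratio of replicate 2 over replicate 1 was 63.4 (46.6 to 88.6). Serpina1b and Serpina1a, 2 mouse copies of the elastase inhibitor alpha-1-antitrypsin, had 543 and 175 reads in replicate 2 and 8 and 3 reads in replicate 1. Serpinc1, antithrombin, had 310 reads (382 CPM) in replicate 2 and 4 (5.81 CPM) in replicate 1. Ambp, the precursor of the protease inhibitor bikunin and of alpha-1-microglobulin, had 280 reads (345 CPM) in replicate 2 and 3 (4.36 CPM) in replicate 1. Itih4 and Itih2, heavy chains of the inter-alpha-trypsin inhibitor family, had 127 and 39 reads in replicate 2 and 2 reads each in replicate 1.

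Of the complement members, C3 and Cfb were among those with low ratios. C3, the central complement protein, had 140 reads (173 CPM) in replicate 2, against 8 (11.6 CPM) in replicate 1, with a ratio of 14.9 (7.34 to 35.1). Cfb, the protease of the alternative pathway, had 137 reads (169 CPM) in replicate 2, against 19 reads (27.6 CPM) in replicate 1, with a ratio of 6.12 (3.77 to 10.5). Cfi, which cleaves activated C3, had 47 reads in replicate 2 and 0 in replicate 1, at least 10.4-fold higher.

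Among the metabolic members, Fabp1, the liver fatty acid-binding protein, led with 376 reads (464 CPM) in replicate 2 and 7 reads (10.2 CPM) in replicate 1. The drug-metabolising cytochromes Cyp3a11 and Cyp2e1 had 60 and 51 reads in replicate 2 and 0 reads each in replicate 1. They were at least 13.4-fold and 11.3-fold higher in replicate 2. The urea cycle members had fewer reads than these in replicate 2. Arg1, arginase, had 39 reads (48.1 CPM) in replicate 2 and 2 (2.91 CPM) in replicate 1, and Cps1, which makes carbamoyl phosphate, had 12 reads (14.8 CPM) in replicate 2 and 0 in replicate 1. Ass1, argininosuccinate synthase, had 22 reads (27.1 CPM) in replicate 2 and 9 reads (13.1 CPM) in replicate 1, and its ratio of 2.08 had an interval of 0.918 to 5.12 that includes 1.

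A minimum of 20 reads over both libraries was passed by 37 of the 40 genes (not Apoc3, Apob and Cps1). On the log2 scale, with 0.5 CPM added to each value, these 37 ran from 1.03 for Ass1 to 7.65 for Apom, with a median of 5.75, beside a median of -0.10 over all 8276 genes with that many reads. At a log2 ratio of at least 4 stood 32 of the 37 members and 92 of all genes (1.11%). Nothing is read from these counts, since the same contrast chose the genes. The 92 genes held 27137 reads in replicate 2 and 531 in replicate 1, and the members among them supplied 84.6% of the replicate 2 reads. Each library is a bulk sample, in which fewer cells of a type and less RNA per cell cannot be told apart.

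**Figure D2:**
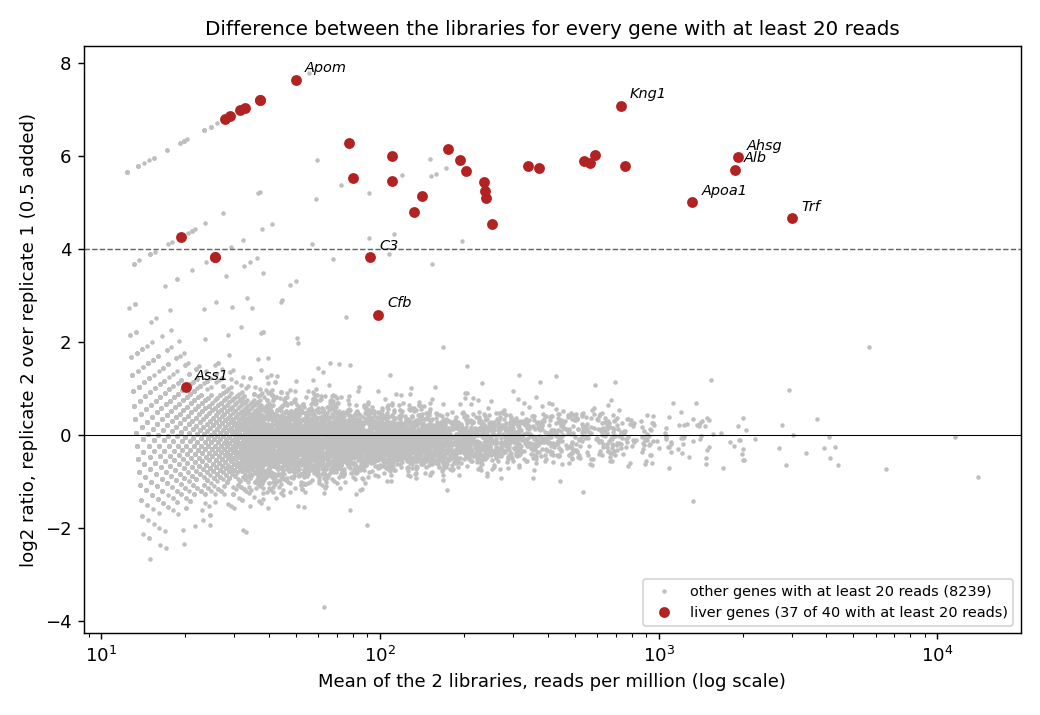
Log2 ratio of replicate 2 over replicate 1 (0.5 CPM added) against the mean level of the libraries on a log axis, for the 8276 genes with at least 20 reads. Red points are the 37 liver genes and the dashed line marks a log2 ratio of 4, passed by 32 of them. Cfb, C3, Ass1, Itih2 and Arg1 lie below that line.

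Set beside the overall ratio of 40.5, the exact 95% interval of Kng1 and of Ahsg lay above it and that of Trf, Apoc3, C3, Cfb and Ass1 lay below it, and the other members' intervals included it or, with 0 reads in replicate 1, were open at the upper end. Of the 26 members with at least 100 reads in replicate 2, 22 had ratios between 20 and 80. The other 4 were Apoh at 105 (18.6 to 4191), Kng1, C3 and Cfb. Without Apoc3, C3, Cfb and Ass1, 4 genes taken out after their values were seen, the overall ratio was 43.3.

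The traces in replicate 1 were led by largely the same genes. Of the 10 most abundant members in each library, 8 were shared: Trf, Ahsg, Alb, Apoa1, Rbp4, Afp, Ttr and Apoa2. Kng1 and Fgg completed the list in replicate 2, and Cfb and Hp in replicate 1. Across the 40 genes the reads of the libraries had a Spearman's rho of 0.81, a description over genes that share their libraries and are not independent replicates. The 9 members at 0 in replicate 1 (Afm, Apob, Apom, F12, Plg, Cfi, Cps1, Cyp3a11 and Cyp2e1) together held 410 reads (506 CPM) in replicate 2.

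By role, carrier proteins took 50.9% of the members' reads in replicate 2 (95% Wilson interval 50.2 to 51.5%) and 56.1% in replicate 1 (51.7 to 60.5%). Inhibitors took 19.4% in replicate 2 (18.9 to 19.9%) and 12.9% in replicate 1 (10.2 to 16.1%). Apolipoproteins had nearly the same share, with 13.5% in replicate 2 and 14.1% in replicate 1. Clotting and adhesion proteins took 12.4% in replicate 2 (12 to 12.8%) and 7.76% in replicate 1 (5.70 to 10.5%). Complement took 1.39% in replicate 2 (1.25 to 1.55%) and 5.51% in replicate 1 (3.81 to 7.90%), and enzymes with Fabp1 took 2.40% in replicate 2 and 3.67% in replicate 1.

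Single genes shaped these shares. Trf alone made up 20.2% of the members' reads in replicate 2 and 31.8% in replicate 1. Alb made up 12.8% in replicate 2 and 9.80% in replicate 1, and Ahsg 13.1% in replicate 2 and 8.37% in replicate 1. Cfb held 0.587% in replicate 2 and 3.88% in replicate 1, and Ass1 0.0942% in replicate 2 and 1.84% in replicate 1. The 4 most abundant members of each library held 55.0% of the members' reads in replicate 2 and 61.0% in replicate 1.

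**Figure D3:**
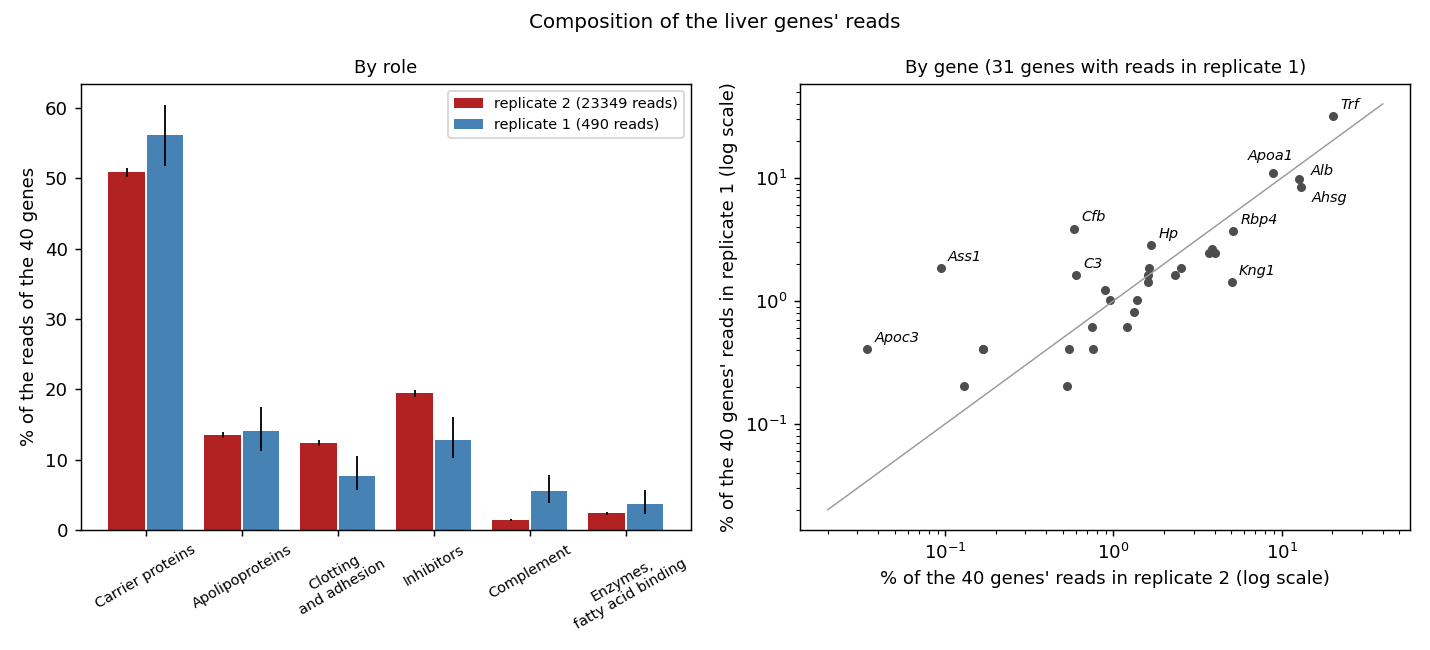
Left, share of the 40 genes' reads by role, in % with 95% Wilson intervals, for replicate 2 (red, 23349 reads) and replicate 1 (blue, 490 reads). Right, share of each of the 31 genes with reads in both libraries on log axes, with the line of equal shares: Trf, Cfb and Ass1 lie above it and Ahsg and Kng1 below it.

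Several members are neighbours in the genome (mm10). The 40 genes lie on 18 chromosomes, and 4 of them form the albumin family on chromosome 5. Alb (90460897 to 90476602), Afp (90490737 to 90508907) and Afm (90518932 to 90553543) follow each other there, with 2984, 943 and 45 reads in replicate 2 and 48, 12 and 0 in replicate 1, while Gc lies about a megabase before them. Levels within this family of tandem genes thus spanned from 3681 to 55.5 CPM in replicate 2. Fgg, Fga and Fgb lie within 42.1 kb on chromosome 3.

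On chromosome 16, Ahsg and Kng1 enclose the genes Fetub, Hrg and Kng2, which are not among the 40. These neighbours, and those of Apoa1, were picked by position after their values were seen. Fetub, Hrg and Kng2 had 42, 50 and 37 reads in replicate 2, against 3, 2 and 4 reads in replicate 1. Around Apoa1 on chromosome 9 the 4 neighbouring apolipoprotein genes differed more. In replicate 2, Apoa1 had 2077 reads, Apoc3 8, Apoa4 7 and Apoa5 32. In replicate 1, Apoa1 had 54 reads, Apoc3 2, Apoa4 18 and Apoa5 0. Apoa4 thus had fewer reads in replicate 2, a difference that did not pass an adjusted p of 0.05 (adjusted p = 0.122, Fisher's exact test with Benjamini-Hochberg adjustment over 8276 genes).

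The Serpina1 copies a to e lie within 231 kb on chromosome 12 and are close in sequence. The coding sequences of their leading transcripts are all 1239 bases long and pairwise 96.3 to 98.5% identical over 10 pairs. They differ at 86 positions in all, 18 of them within the 60 coding bases printed here from GENCODE (positions 1101 to 1160 of the coding sequence, minus strand), which lie near the codons of the site that proteases attack. Capitals mark the positions at which the 5 copies are not all alike.
Serpina1a-202: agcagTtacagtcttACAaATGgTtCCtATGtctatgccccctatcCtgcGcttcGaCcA
Serpina1b-201: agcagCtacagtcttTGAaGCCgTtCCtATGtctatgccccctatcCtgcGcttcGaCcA
Serpina1c-201: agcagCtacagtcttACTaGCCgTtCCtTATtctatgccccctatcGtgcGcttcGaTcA
Serpina1d-201: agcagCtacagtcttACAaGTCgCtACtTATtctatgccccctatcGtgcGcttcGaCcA
Serpina1e-201: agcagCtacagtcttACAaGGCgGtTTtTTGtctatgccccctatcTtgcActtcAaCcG

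Reads were assigned to all 5 copies, with 175 for a, 543 for b, 241 for c, 276 for d and 252 for e in replicate 2, and 3 for a, 8 for b, 3 for c, 4 for d and 4 for e in replicate 1. In replicate 2, 46 of these 1487 reads (3.09%) lay on models that join exons of 2 copies, and in replicate 1, 0 of 22 did. The split between Serpina1a and Serpina1b and the other copies is therefore uncertain, and their sum is the firmer value. The copies are those of the mm10 genome, and reads from CAST/EiJ alleles were not examined apart.

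Isoform shares were not used to choose the genes. In replicate 2, 35 of the 40 genes had at least 20 reads of complete models, meaning annotated transcripts or new ones with their own full splice pattern. An annotated transcript led in all 35, and it held over 90% of the complete reads in 28. Its share ran from 42.4 to 100%, with a median of 96.6%. New splice patterns made up 1.76% of the members' reads in replicate 2, against 8.52% for all other known genes, and 2.86% of the members' reads in replicate 1, against 8.42%.

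Apoa2 was split almost evenly between annotated transcripts. Apoa2-204 held 413 and Apoa2-201 held 394 of its complete reads in replicate 2 (49.9% and 47.6%), and in replicate 1 they held 4 and 5. Both code for the same 306 bases. They differ in where exon 2 begins, at position 171225287 of chromosome 1 in Apoa2-204 and 3 bases earlier, at 171225284, in Apoa2-201, and in the length of exon 1.

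Itih4 was split among 3 annotated transcripts. Itih4-202 held 50, Itih4-203 held 39 and Itih4-204 held 12 of its 118 complete reads in replicate 2 (42.4%, 33.1% and 10.2%), and both reads of replicate 1 were Itih4-202. The forms differ at exon 17 on chromosome 14, which is 51 bases long in Itih4-203 (30897523 to 30897573), 3 bases shorter at its start in Itih4-202, and absent from Itih4-204. The coding sequence around this exon is printed with the exon in capitals and 20 bases on each side, and shows the CAG that only Itih4-203 keeps.
Itih4-202: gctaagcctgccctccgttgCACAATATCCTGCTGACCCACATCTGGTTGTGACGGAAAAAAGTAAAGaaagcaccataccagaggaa
Itih4-203: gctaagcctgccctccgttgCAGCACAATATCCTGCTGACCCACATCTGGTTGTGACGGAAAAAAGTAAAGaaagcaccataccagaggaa
Itih4-204: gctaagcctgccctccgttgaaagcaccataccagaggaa

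Kng1 makes a long and a short kininogen by splicing from within exon 10. The short form Kng1-202, with 1296 coding bases, held 653 of 705 complete reads in replicate 2 (92.6%) and 2 of 4 in replicate 1. The long form Kng1-201, with 1983 coding bases, held 18 reads in replicate 2 (2.55%) and 1 in replicate 1. Both share their first 1200 coding bases on chromosome 16. The last 40 shared bases are printed in lower case and the next 40 bases of each form in capitals.
Kng1-202: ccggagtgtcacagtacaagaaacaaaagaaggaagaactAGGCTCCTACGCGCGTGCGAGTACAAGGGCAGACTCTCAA
Kng1-201: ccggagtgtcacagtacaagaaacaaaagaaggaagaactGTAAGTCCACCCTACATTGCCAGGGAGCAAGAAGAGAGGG

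Other members had a dominant form with a minor partner. Apoa1-201 held 1941 of 2030 complete reads in replicate 2 (95.6%) and 50 of 52 in replicate 1 (96.2%), and the shorter Apoa1-202 held 82 in replicate 2 and 2 in replicate 1. Serpina1a-202 held 79.1% of complete reads in replicate 2, beside a new 3-exon combination of known splice sites with 20 reads (12.7%). The following minor forms were singled out after their values were seen. Fga-202, whose coding sequence of 2367 bases exceeds the 1671 bases of Fga-201, had 16 reads beside 193 of Fga-201 in replicate 2 and 0 beside 5 in replicate 1. Fgg-202, which ends in a longer exon 9 in place of exon 10, had 15 reads beside 249 of Fgg-201 in replicate 2 and 0 beside 6 in replicate 1. Cfi-201 held 27 complete reads (62.8%) in replicate 2, beside a new 12-exon model with 7 (16.3%).

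Only Trf, Apoa1 and Alb had 20 complete reads in each library, so the leading isoform's share could be compared for 3 members. Trf-201 held 97.3% in replicate 2 and 97.4% in replicate 1, and Alb-201 held 99.2% in replicate 2 and 95.5% in replicate 1. None of the 3 was called (adjusted p = 1 for each, two-sided Fisher's exact test with Benjamini-Hochberg adjustment over 4734 genes, a difference of at least 10 points required). Over all genes tested 16 were called, or 0.338%. With 22 complete reads of Alb in replicate 1, the depth limits what this comparison can show, and it compares libraries, not animals.

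Many member reads did not cover a full transcript. Complete models held 77.0% of the members' reads in replicate 2 and 81.8% in replicate 1, against 82.5% in replicate 2 and 85.5% in replicate 1 for all other known genes. Incomplete splice matches, which follow part of an annotated transcript, held 13.4% in replicate 2 and 15.5% in replicate 1, and genomic models, unspliced or reaching into introns, held 9.64% in replicate 2 and 2.65% in replicate 1. Per gene, the median complete share in replicate 2 was 90.9% over the 37 members with at least 20 reads there, and 88.4% over all 6247 genes with that many. Of the 37, 6 had under 60% complete reads, namely Kng1 (59.8%), Fgg (45.3%), Fgl1 (12 of 30 reads), Ahsg (39.1%), C3 (35.7%) and Serpinc1 (0.645%).

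Ahsg accounted for most of the genomic reads. In replicate 2, 1798 of its 3063 reads lay on 1 unspliced model listed at chr16:22898128-22899443, a span that covers exons 6 and 7 and the intron between them, and 1181 lay on the full transcript Ahsg-201. In replicate 1, 23 of 41 reads lay on a single-exon model of 277 nt within exon 7, named an incomplete match, and 18 on Ahsg-201. The single-exon reads were 58.7% of the gene's reads in replicate 2 and 56.1% in replicate 1, under different class names. Without Ahsg, genomic reads were 2.23% of the members' reads in replicate 2 and 2.90% in replicate 1. Complete reads were then 82.7% in replicate 2 and 85.3% in replicate 1, close to the shares of all other known genes. Incomplete splice matches were 15.1% in replicate 2 and 11.8% in replicate 1.

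Many incomplete Alb reads began at the same exon. The full transcript Alb-201, of 15 exons, held 1779 reads in replicate 2 and 21 in replicate 1, and a model of only its last 8 exons held 842 reads in replicate 2 and 21 in replicate 1. That model begins with exon 8 (90468481 to 90468695) and had the most reads of any incomplete splice match among the members in replicate 2. For Fgg and Kng1 most fragments lay in the last exon of the leading transcript alone, with 283 reads (215 nt) and 453 reads (207 nt) in replicate 2. Rbp4 had 318 genomic reads in replicate 2 and 8 in replicate 1, on a model with a listed length of 2 nt, which cannot be the length of the reads.

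Serpinc1 had almost no complete reads, 2 of 310 in replicate 2 and 0 of 4 in replicate 1. A 7-exon incomplete match listed from 160987087 to 161002463 on chromosome 1 held 245 reads in replicate 2 and all 4 reads in replicate 1. The annotated coding transcript Serpinc1-201 has 8 exons, begins upstream at 160978646 and ends downstream at 161005863. The start of the 7-exon model is that of Serpinc1-206, an annotated transcript of 2 exons without a coding sequence.

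**Figure D4:**
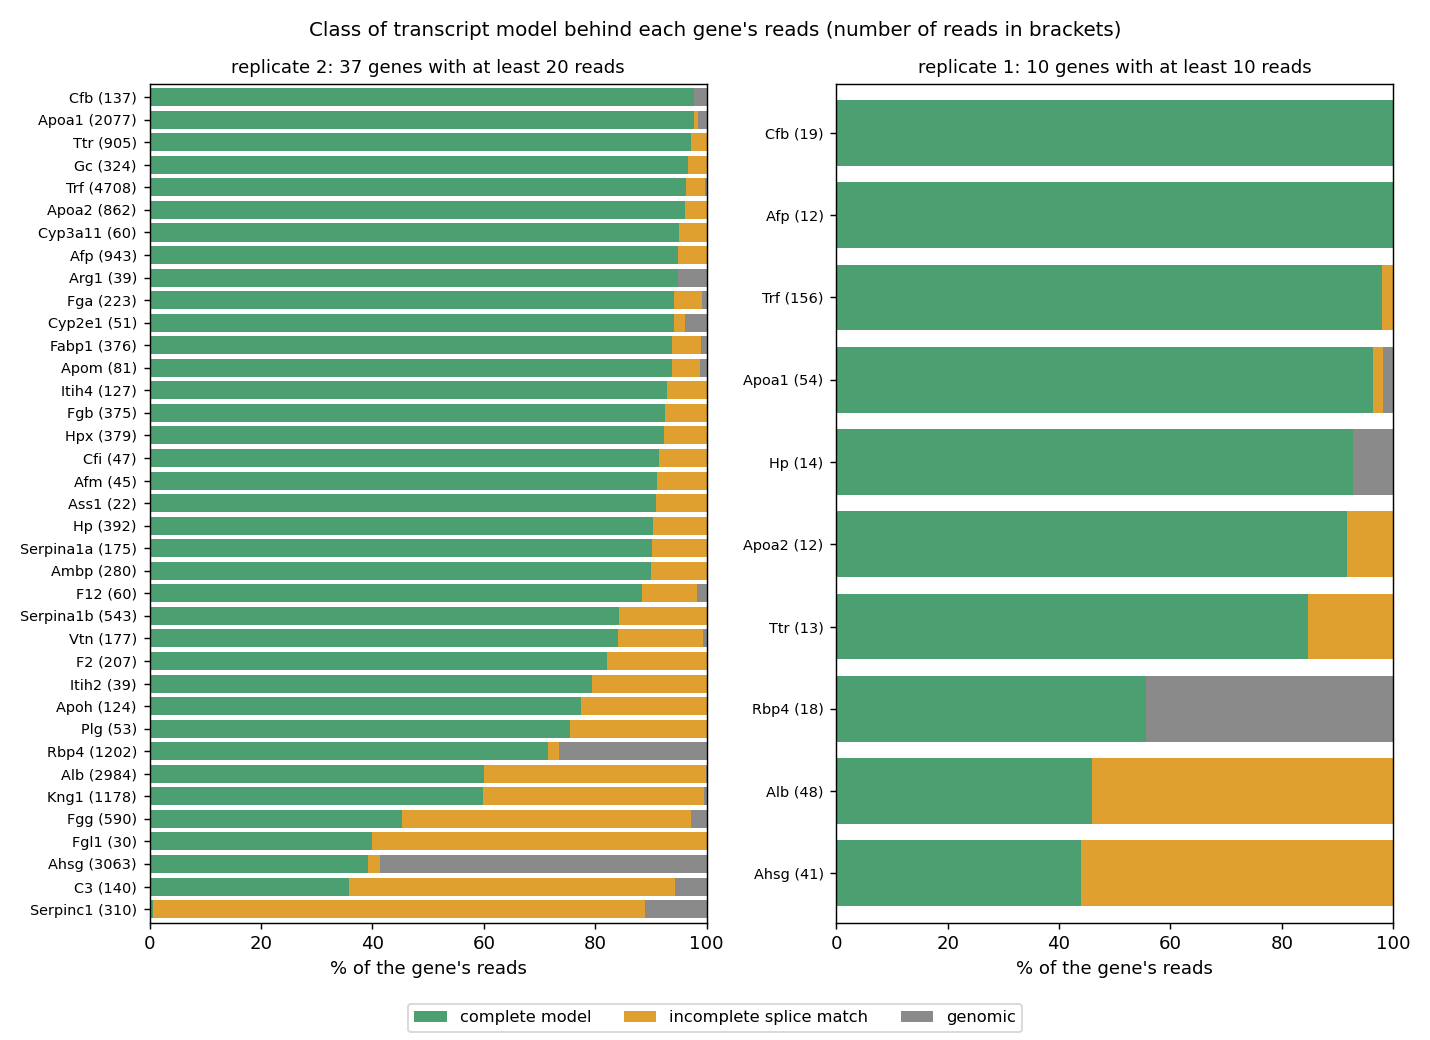
Share of each gene's reads by class of transcript model, in %, for the 37 members with at least 20 reads in replicate 2 (left) and the 10 with at least 10 reads in replicate 1 (right), with read numbers in brackets. Green is complete, yellow incomplete and grey genomic. Serpinc1, C3, Ahsg, Fgl1 and Fgg have the lowest complete shares in replicate 2, and Ahsg and Alb the lowest in replicate 1.

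The share of incomplete and genomic reads could be compared for 4 members with at least 20 reads in each library. Alb had 39.9% in replicate 2 and 54.2% in replicate 1, a difference of -14.3 points (adjusted p = 0.631, two-sided Fisher's exact test with Benjamini-Hochberg adjustment over 5453 genes). Ahsg had 60.9% in replicate 2 and 56.1% in replicate 1, Trf 3.65% in replicate 2 and 1.92% in replicate 1, and Apoa1 2.26% in replicate 2 and 3.70% in replicate 1. None of the 4 was called, and over all genes 32 were (0.587%). When genomic models were left out, 1 of the 4 was called, Ahsg, whose fragments carry different class names in the libraries, beside 94 of 5142 genes (1.83%).

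Some members with long transcripts had few or partial reads. Cps1, with a longest annotated transcript of 5555 nt, had 12 reads in replicate 2, and C3, with 5136 nt, had 42 reads of its full transcript C3-201 among 140. Across the 40 genes, the longest annotated transcript and the reads in replicate 2 had a Spearman's rho of -0.23, and across the 37 members with at least 20 reads the length and the complete share had a rho of -0.14. These are descriptions across genes of 1 library, and the part of transcript length in the low counts of Apob, Cps1 and C3 was not tested.

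Genes of the same pathways outside the 40 were taken from 8 lists with 110 genes, of which 57 had at least 20 reads over both libraries. Of these 57, 32 were called higher in replicate 2, 1 was called lower and 24 were not called. The lists were chosen with earlier results of these data known. Apart from Apoe and Apoc4, the list genes called higher each had under 20 reads in replicate 1. These genes, such as Cyp2d10 with 40 reads in replicate 2 and 0 in replicate 1, passed the read minimum only through replicate 2. The count of calls is therefore given as a description. A call needed an adjusted p under 0.05 (Fisher's exact test, two-sided, adjusted by Benjamini-Hochberg over 8276 genes) and a log2 ratio no closer to 0 than 1. Among all 8276 genes 187 were higher (2.26%) and 80 lower (0.967%), and with DESeq2's size factors 211 were higher and 45 lower. With 1 library on each side the test compares libraries and has no replicate check, and no difference between the lists was tested.

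Of the other clotting genes, 8 of 9 tested were higher, with a median log2 ratio of 4.19. All 8 had only 1 to 4 reads in replicate 1 and passed the read minimum through replicate 2, so nothing is read from their number. Serpinf2, the plasmin inhibitor, had 191 reads (236 CPM) in replicate 2 and 3 (4.36 CPM) in replicate 1, and Proc, protein C, had 95 reads in replicate 2 and 1 in replicate 1. Hrg had 50 reads in replicate 2 and 2 in replicate 1, and F10 45 in replicate 2 and 2 in replicate 1. Pros1, protein S, went the other way with 32 reads in replicate 2 and 58 in replicate 1, a call that was lost with DESeq2's size factors.

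Of the other plasma inhibitor and acute phase genes, 10 of 13 tested were higher, with a median log2 ratio of 5.12. These 10 include the Serpina1 copies c, d and e, whose reads are not firmly split from those of the members Serpina1a and Serpina1b. Besides the Serpina1 copies c, d and e, Itih3, a further heavy chain of the inter-alpha-trypsin inhibitor, had 243 reads (299.8 CPM) in replicate 2 and 4 (5.81 CPM) in replicate 1. Of the other apolipoprotein genes, 5 of 8 tested were higher, with a median log2 ratio of 1.89. Apoe, which many tissues make, had 7276 reads (8976 CPM) in replicate 2 and 1672 reads (2429 CPM) in replicate 1. Apoc1 had 377 reads in replicate 2 and 206 in replicate 1 and was not called, as its log2 ratio of 0.63 fell short of the size required. Apoc4 had 216 in replicate 2 and 49 in replicate 1, and Apoc2 had 74 in replicate 2 and 6 in replicate 1.

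Other complement genes were mostly not called. Of 9 tested, 1 was higher, Mbl2, a lectin that starts the complement cascade, with 33 reads in replicate 2 and 0 in replicate 1. In replicate 2, C4b had 189 reads, Masp1 56, C1ra 54 and C2 53. In replicate 1, C4b had 135 reads, Masp1 42, C1ra 32 and C2 28. With TMM or DESeq2 scaling 2 of the 9 were higher.

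In the urea cycle and amino acid list, 4 of 8 tested genes were higher. Bhmt, a methyl transferase of methionine metabolism, had 174 reads in replicate 2 and 7 in replicate 1, Mat1a, which makes S-adenosylmethionine in the liver, had 145 in replicate 2 and 3 in replicate 1, and Hpd, of tyrosine breakdown, had 58 in replicate 2 and 1 in replicate 1. Asl, the urea cycle enzyme that follows Ass1, had 168 reads in replicate 2 and 142 in replicate 1 and was not called. Of the sugar metabolism genes, Fbp1, an enzyme of gluconeogenesis, was higher, with 164 reads in replicate 2 and 9 in replicate 1. Khk had 84 in replicate 2 and 56 in replicate 1, and Pck1 51 in replicate 2 and 40 in replicate 1. Neither was called.

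Of the cytochrome and bile acid genes only 3 of 15 reached 20 reads. Cyp2d10 had 40 reads in replicate 2 and 0 in replicate 1, and the bile acid transporter gene Slc10a1 had 22 in replicate 2 and 0 in replicate 1, both called higher. Cyp2f2 went the other way, with 92 reads in replicate 2 and 153 in replicate 1. Its log2 ratio of -0.97 fell just short of the size that a call requires. Of the liver transcription factors, 2 of 11 had enough reads to be tested and neither was called, Cebpa with 61 reads in replicate 2 and 55 in replicate 1 and Nr1h4 with 20 in replicate 2 and 19 in replicate 1. Foxa3 had 12 reads in replicate 2 and 0 in replicate 1, and Hnf4a 8 in replicate 2 and 0 in replicate 1.

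Markers of other cells of the liver were examined beside the members. The 6 Kupffer cell markers, of the liver's macrophages, summed to 40 reads (49.3 CPM) in replicate 2 and 2 reads (2.91 CPM) in replicate 1, led by Cd5l with 18 in replicate 2 and 1 in replicate 1 and Clec4f with 11 in replicate 2 and 0 in replicate 1. The sinusoidal endothelium list summed to 20 reads in replicate 2 and 15 in replicate 1, with Dnase1l3 at 0 in both. The stellate cell list summed to 264 reads in replicate 2 and 243 in replicate 1, nearly all from Ecm1 (252 in replicate 2 and 231 in replicate 1), with Lrat at 1 read in replicate 2 and 0 in replicate 1. The bile duct list summed to 21 reads in replicate 2 and 26 in replicate 1.

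Blood cell markers were examined in the same way. Of the neutrophil precursor list 5 of 6 tested genes were higher, and the list held 303 reads (374 CPM) in replicate 2 and 35 reads (50.9 CPM) in replicate 1. S100a8 had 70 reads in replicate 2 and 6 in replicate 1, and Ngp had 52 in replicate 2 and 3 in replicate 1. Mpo, with 30 in replicate 2 and 15 in replicate 1, was not called. The 5 called genes had 1 to 7 reads in replicate 1 and passed the read minimum through replicate 2, so nothing is read from their number. Of all 8276 genes, 2.26% were called higher. The red cell list stood at 6539 CPM in replicate 2, against 3240 CPM in replicate 1, with 2 of 4 tested genes higher, Hbb-bs and Alas2, and 3 of 4 with TMM or DESeq2 scaling. The summed levels of both lists and of the Kupffer cell list, of which no gene had enough reads to be tested, were thus higher in replicate 2, and their part in the result was not tested.

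Markers of other abdominal organs were low in both libraries. The pancreas list summed to 59 reads in replicate 2 and 46 in replicate 1, mostly from Cela1 (54 in replicate 2 and 43 in replicate 1), with Prss2, Pnlip and Cel at 0 in both. The intestine list summed to 25 reads in replicate 2 and 6 in replicate 1, with Lct and Muc2 at 0 in both. The kidney list summed to 7 reads in replicate 2 and 26 in replicate 1. Of the adrenal markers, 1 of 7 cortex genes was called lower in replicate 2, and none of the 6 medulla genes was called. The called gene was Cyp11b2, the aldosterone synthase gene, with 258 reads in replicate 2 and 515 in replicate 1. All 7 cortex and all 6 medulla genes nevertheless had lower CPM in replicate 2. Their median log2 ratios were -0.65 for the cortex and -0.39 for the medulla, closer to no change than a call requires.

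**Figure D5:**
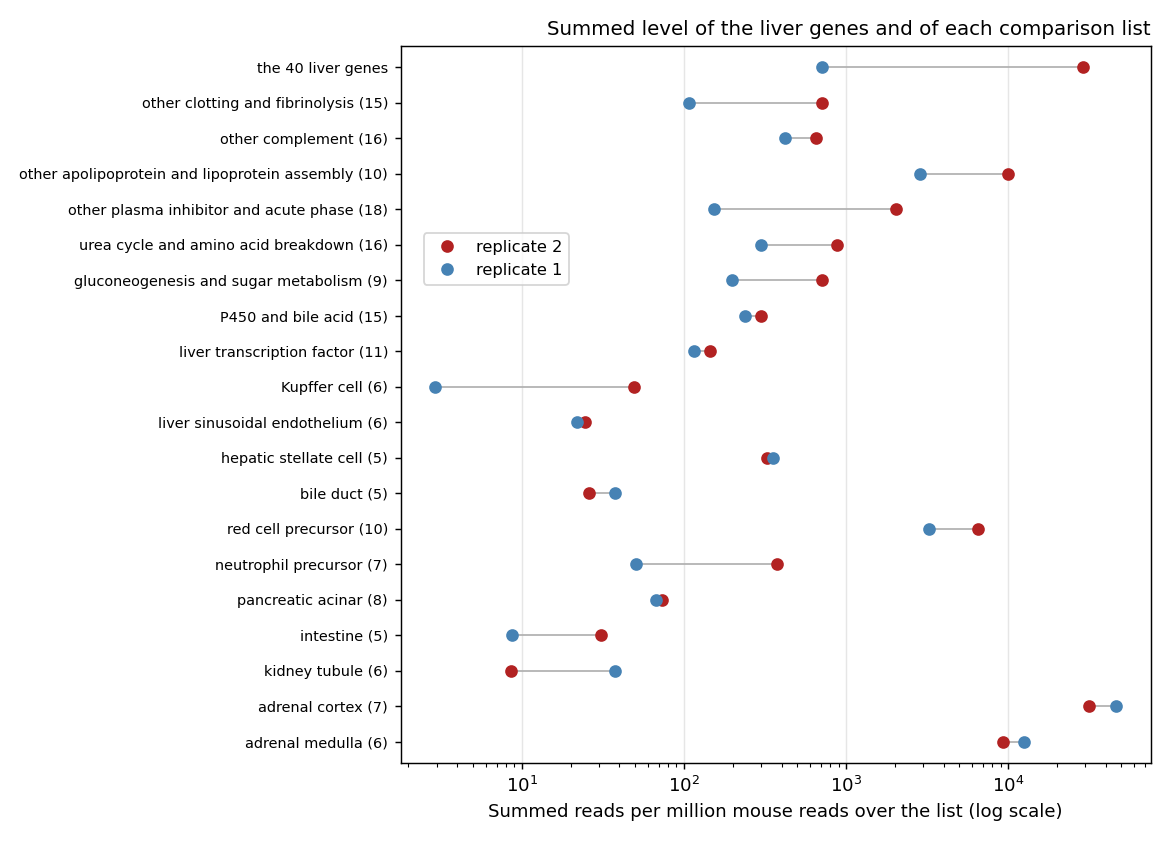
Summed level of the 40 liver genes and of 19 other lists, in CPM on a log axis, for replicate 2 (red) and replicate 1 (blue), with the number of genes in brackets. The 40 genes stand at 28803 CPM in replicate 2 and 712 CPM in replicate 1. The Kupffer cell, neutrophil precursor and plasma inhibitor lists are wide apart, and the stellate cell, sinusoidal endothelium and pancreas lists are nearly equal.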

How the data were processed

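Total RNA of 2 adrenal gland libraries of 4-day-old mice was measured by long-read sequencing. The authors deposited raw read counts per transcript model, 1 file per library, not normalized. Per the file headers, models carry the tags of the program TALON and the mm10 genome with GENCODE mouse release 21 and spike-in sequences. The deposited description says that filtered alignments were used, and no header or label used here names the aligner or the filters. Reads on spike-in sequences were left out (21907 in replicate 2, 19466 in replicate 1). Counts were summed per gene and scaled to the mouse reads of the library (CPM). Genes were compared with Fisher's exact test and Benjamini-Hochberg adjustment over genes with at least 20 reads; shares carry Wilson and ratios exact 95% intervals. Intervals and the 3-read limit of a count of 0 cover counting error only, because no molecular identifiers mark PCR copies. With 1 library per replicate, p-values compare libraries and not animals. The tests were first tried on simulated data. The 40 genes, roles and lists were chosen with earlier results of these data known. All 40 genes are named. Of each list, at most the 4 most abundant in replicate 2 and some of the genes behind a count of 5 or fewer are named. Neighbours of members and markers without reads were named after their values were seen. The values of 1 list gene are not reported here. Alternatives were TMM (edgeR 4.0.16), DESeq2 1.42.0 size factors, read minimums, pseudocounts and model classes. Python 3.11.15, scipy 1.17.1 and R 4.3.3 were used.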

Additional observations from a re-analysis of the deposited data

How the results depend on the processing

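The number of members at a log2 ratio of at least 4 was 29 to 34 and the members' median log2 ratio 5.70 to 5.88 over 9 alternatives. The number of members with enough reads changed too. The 29 were of 31 at a minimum of 50 reads, and the 34 were of 37 with a pseudocount of 0.1 CPM. These values are given as a description because this contrast chose the members. The members' share of mouse reads was 1.48% as the mean of the libraries, and left at 1 library it ranged from 0.0712 to 2.88%. The share of Alb among the members' reads was 11.3% as the mean of the libraries, and with 1 library left out it ranged from 9.80 to 12.8%. The mean fell to 7.78% with known models only and to 7.73% with complete models only, because many Alb reads lie on incomplete models. Calls of a changed leading isoform fell to 2 with known models only, against 16. Calls of a changed incomplete share numbered 94 with genomic models left out, against 32, and the cause was not tested. DESeq2's size factors moved the median log2 ratio of all genes to 0.01, against -0.10, and changed the split of calls to 211 higher and 45 lower, against 187 and 80. At a minimum of 50 reads 105 genes were higher. No paired analysis was possible because there is 1 group with 1 library per replicate. In replicate 1, 30 of 40 members had under 10 reads, which limits the precision of their ratios and isoform shares.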
